A study of Mus musculus with 6 samples.

Results

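The chromatin of regulatory T cells (Treg cells) was examined at 3 genes that encode T cell transcription factors, Tcf7, Lef1 and Satb1. The readout was ATAC-seq, which marks open chromatin by letting a transposase cut and tag it, and the data were 1 list of peaks per genotype on mouse build mm10. A peak belonged to a gene when its midpoint lay in the gene body, or between genes with that gene as the nearest protein-coding gene within 100 kb. By this rule the 3 genes held 68 of the 74440 peaks, 33 of 36182 in the KO list and 35 of 38258 in the WT list. Tcf7 had 8 KO and 9 WT peaks, Lef1 had 14 and 15, and Satb1 had 11 and 11.

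The KO list came from 3 samples of the genotype Bcl11b f/f with Foxp3-IRES-YFP-Cre, described as Bcl11b deficient. The WT list came from 3 samples of the genotype Bcl11b w/w with the same Foxp3-IRES-YFP-Cre allele, described as Bcl11b sufficient. Both groups were of the C57BL/6 background, carried Cre and YFP under the Foxp3 gene, and were sorted as CD4+YFP+ cells from spleen and draining lymph nodes, with 100000 cells lysed per sample. Foxp3, the lineage factor of Treg cells, drives Cre, and the sort kept cells that made YFP. The age of the mice is not given in the sources used here, and neither is the part of Bcl11b that Cre removes, so the peaks do not check the deletion (at Bcl11b itself 5 peaks were KO-only, 5 were WT-only and 6 were shared).

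Tcf7 and Lef1 encode the HMG-box factors TCF-1 and LEF-1, which bind the same DNA motif, recruit TLE co-repressors, and can turn to activation when they bind beta-catenin. Both are high in naive and resting T cells and take part in early T cell commitment, as does Bcl11b. Satb1 encodes a chromatin organizer that anchors enhancers and loops in thymocytes, is needed for setting up Treg enhancers in the thymus, and is restrained by Foxp3 in mature Treg cells.

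A list holds no read counts and no values per sample, so the depth behind each peak is unknown, no spread between replicates can be given, and no difference between the genotypes was tested. A peak with 1 bp or more in common with the other list is called shared, and any other peak KO-only or WT-only. A site missing from a list may still have been open in those cells. In the lists as a whole, of the marker genes of Treg and CD4 T cells (Foxp3, Il2ra, Ctla4, Ikzf2, Cd4 and Cd3e) 6 of 6 had a KO peak and 6 of 6 a WT peak. Within 1 kb of a gene end 5 of these 6 had a KO peak and 4 a WT peak, and Foxp3, with 1 peak in each list, had none there. Of 12 markers of CD8 T cells, NK cells, B cells, myeloid, erythroid and non-lymphoid cells, 4 had a KO peak and 5 a WT peak. Those with a peak included the NK cell marker Klrb1c, with 5 KO and 6 WT peaks, and the B cell marker Pax5, with 4 and 2. Cd8b1 had 1 and 2, Itgax 1 and 0, Lyz2 0 and 1, and Alb 0 and 1. Cd8b1 was the one of the 12 with a peak within 1 kb of a gene end, in each list, and Cd8a, Ncr1, Ms4a1, Csf1r, Hbb-bs and Myh6 had no peak in either list.

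Each gene has several transcription starts in RefSeq, and among the 3 genes peaks overlapped promoter windows of Satb1 alone. A RefSeq promoter window runs from 250 bases before a start to 50 bases after it, and 11 windows belong to the 3 genes: 2 to Tcf7, 4 to Lef1 and 5 to Satb1. KO peaks overlapped 2 of the 11 windows and WT peaks the same 2, both of Satb1. Over 21263 windows of protein-coding genes, KO peaks overlapped 40.7% and WT peaks 41.1%. The Satb1 windows with peaks are printed first, with the bases that lie in the peaks of both lists in capitals. Both windows of Tcf7 follow, since a list-specific peak lay near them, and the Lef1 window with the most motif matches; in these 3, which held no peak, capitals mark motif matches. All are 5′ to 3′ on the strand of the gene, from RefSeq on build GRCm38.p6, which shares its coordinates with mm10.
Satb1, start inside the gene, minus strand, chr17:51826539-51826838: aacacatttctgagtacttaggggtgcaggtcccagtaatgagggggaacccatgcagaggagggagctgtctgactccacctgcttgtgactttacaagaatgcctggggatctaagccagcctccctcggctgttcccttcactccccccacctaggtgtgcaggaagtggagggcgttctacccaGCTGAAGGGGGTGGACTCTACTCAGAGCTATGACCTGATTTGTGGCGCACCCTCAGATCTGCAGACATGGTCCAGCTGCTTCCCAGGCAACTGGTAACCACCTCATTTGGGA
Satb1, start near the 5′ end, minus strand, chr17:51832598-51832897: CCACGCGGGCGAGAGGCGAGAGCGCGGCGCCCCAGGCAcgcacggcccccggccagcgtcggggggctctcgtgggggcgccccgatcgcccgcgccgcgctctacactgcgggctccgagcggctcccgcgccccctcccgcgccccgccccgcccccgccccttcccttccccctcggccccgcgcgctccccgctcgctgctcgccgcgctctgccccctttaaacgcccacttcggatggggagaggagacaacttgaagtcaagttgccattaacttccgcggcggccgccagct
Tcf7, downstream start, minus strand, chr11:52282546-52282845: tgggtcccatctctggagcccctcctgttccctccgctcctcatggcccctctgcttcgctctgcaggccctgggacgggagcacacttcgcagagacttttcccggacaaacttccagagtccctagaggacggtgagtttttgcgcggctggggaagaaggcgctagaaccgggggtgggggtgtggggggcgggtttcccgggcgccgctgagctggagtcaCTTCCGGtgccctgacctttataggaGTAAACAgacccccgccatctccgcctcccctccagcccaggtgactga
Tcf7, upstream start, minus strand, chr11:52282965-52283264: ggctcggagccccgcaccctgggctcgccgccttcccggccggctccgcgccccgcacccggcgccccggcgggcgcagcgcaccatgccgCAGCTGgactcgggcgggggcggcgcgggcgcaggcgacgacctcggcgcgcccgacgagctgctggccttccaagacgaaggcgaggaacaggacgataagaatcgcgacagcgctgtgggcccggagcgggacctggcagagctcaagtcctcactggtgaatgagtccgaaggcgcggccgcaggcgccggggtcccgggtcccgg
Lef1, start inside the gene, plus strand, chr3:131156044-131156343: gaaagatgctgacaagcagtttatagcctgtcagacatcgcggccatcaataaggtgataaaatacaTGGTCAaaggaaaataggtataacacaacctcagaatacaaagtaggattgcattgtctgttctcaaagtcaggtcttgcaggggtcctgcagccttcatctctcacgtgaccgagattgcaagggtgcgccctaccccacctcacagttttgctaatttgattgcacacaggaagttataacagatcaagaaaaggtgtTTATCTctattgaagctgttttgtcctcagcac

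In the Satb1 window inside the gene, 112 bases were covered by the KO peak and 145 by the WT peak. The peak midpoints lay 34 bp (KO) and 14 bp (WT) past that start. In the Satb1 window near the 5′ end the KO peak covered 62 bases and the WT peak 38.

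Letters of 10 motifs were searched in all 11 windows on both strands. The E-box CAGCTG, a form of the site that E proteins and their relatives bind, was in 3 windows, 1 per gene, against 15.6% of all windows. The Satb1 window inside the gene held it at bases 187 to 192 and again at bases 261 to 266, counted from the 5′ end. The WT peak covered both copies, whereas the KO peak, which began at base 189, covered the copy at base 261 whole and the other in part. The upstream Tcf7 window, which lies inside the gene, past its 5′ end at base 52283383 of chromosome 11, held it at bases 92 to 97. A Lef1 window not printed, chr3:131112541-131112840, held it at bases 46 to 51.

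The downstream Tcf7 window held the ETS letters CCGGAAG (11.6% of all windows) and the forkhead letters TGTTTAC (3.01%), each as its reverse complement. The Lef1 window shown held the GATA letters AGATAA (9.65%) and the letters TGACCA (12.5%), searched as a site of the BCL11 family, also as reverse complements. The TCF/LEF letters CTTTGAT (3.22% of all windows), RUNX letters TGTGGT (15.0%), AP-1 letters TGANTCA (6.99%), NFAT letters TGGAAA (19.3%) and STAT letters TTCNNNGAA (7.69%) matched in 0 of the 11 windows. No matches in the 11 windows overlapped each other. These are matches of letters and do not show which factors bind.

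Most peaks of the 3 genes were called in both genotypes. Of the 33 KO peaks, 6 were KO-only (18.2%, exact Clopper-Pearson 95% interval 6.98 to 35.5%), beside 25.4% of all KO peaks. Of the 35 WT peaks, 8 were WT-only (22.9%, 10.4 to 40.1%), beside 29.5% of all WT peaks. Both intervals hold the share of the whole list. The 27 shared sites were 8 at Tcf7, 11 at Lef1 and 8 at Satb1.

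Tcf7 had 0 KO-only and 1 WT-only peak, Lef1 had 3 and 4, and Satb1 had 3 and 3. More WT-only than KO-only peaks were also counted at 26.8% of the 14664 protein-coding genes with a peak, more KO-only peaks at 20.2%, and as many of each at 53.1%. With so few peaks a share is loose: the 0 of 8 KO peaks of Tcf7 has an exact upper limit of 36.9%. The differences at the 3 genes, 1 peak or none, were of a size that many genes had. All 3 genes had many peaks, by counts that were not scaled to the length of a gene or of the space around it. Tcf7 had more KO peaks than 95.6% of genes with a peak and more WT peaks than 96.1%. For Lef1 these shares were 99.2% and 99.2%, and for Satb1 98.1% and 97.7%, where the median gene had 2 KO and 2 WT peaks.

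**Figure D1:**
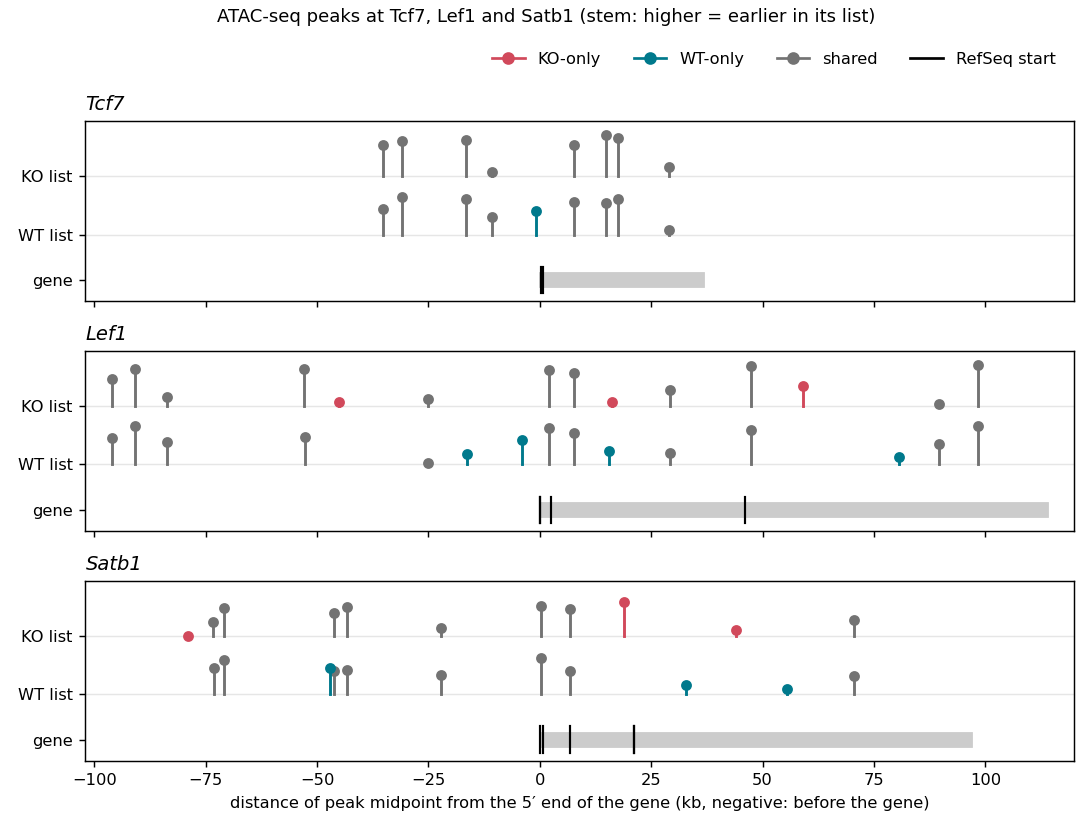
Peaks of Tcf7, Lef1 and Satb1 by the distance of their midpoint from the 5′ end of the gene in kb (x axis), with the KO list above the WT list, the gene body as a grey bar and RefSeq starts as black ticks. The stem of a peak is longer the earlier it stands in its list. All peaks outside a gene body lie before its 5′ end, and the list-specific peaks lie among shared ones.

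The peaks lay inside the genes or before their 5′ ends. Of the KO peaks, 17 lay in a gene body and 16 before the 5′ end, and of the WT peaks 17 and 18. Past the 3′ ends lay 0 of the peaks assigned to the 3 genes. Over all peaks between genes whose nearest gene has a strand in the RefSeq promoter table, 64.3% of 11023 KO peaks and 63.1% of 11290 WT peaks lay on the 5′ side. On the 3′ side Tcf7 overlaps Skp1, and the 2 KO and 3 WT peaks before the next gene there were assigned to other genes. The next gene past Lef1, Hadh, lies 9.06 kb away. Satb1 has space on both sides, with Tbc1d5 555 kb past its 3′ end and Kcnh8 769 kb before its 5′ end, and no other protein-coding gene lies within 500 kb of its middle. There the nearest peak on the 3′ side was 328 kb (KO) and 297 kb (WT) past the gene, and the nearest on the 5′ side 22.1 kb (KO) and 22.1 kb (WT) before it.

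Tcf7 spans 36.9 kb on the minus strand at chr11:52246527-52283383. Its WT-only peak, chr11:52284182-52284400, was the peak nearest to a Tcf7 start in either list. It lay 0.908 kb before the 5′ end of the gene. The closest start in the RefSeq promoter table, which has none at that 5′ end, lies inside the gene, 1277 bp from this peak. The KO peak nearest to this WT peak was 8.42 kb away, and the KO peak nearest to a Tcf7 start lay 6.93 kb past it, inside the gene. Within 2 kb of a start, a limit chosen after these values were seen, Tcf7 therefore had a WT peak and no KO peak. Of 9516 genes with a WT peak at that distance, 3.74% had no KO peak there, and of 9465 genes with a KO peak 3.22% had no WT peak. Lef1 and Satb1 had a peak within 2 kb of a start in each list.

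The rows of a list are not in order of position over the whole list, and their order is read here as a coarse rank of peak strength, which neither the labels nor the score state. Within a chromosome the numbers in the peak names follow the rows closely, with a rank correlation of 0.998 in each list. Between neighbouring rows of the same chromosome they increased in only 56.5% of steps in the KO list and 55.3% in the WT list. The rows form runs in order of chromosome and position, the longest holding 1.64% of the KO list and 1.49% of the WT list, and within a run the order carries no rank. Placing each peak at the middle of its run moved no place of the 3 genes by more than 0.524 points (KO) or 0.51 points (WT). A place is given as the percentage of rows from the top, and since the lists differ in length no change is read from a pair of places. The WT-only peak of Tcf7 stood at 44.6% of the WT list. In the same 10% band of that list, 20.3% of all WT peaks were WT-only.

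The 8 shared sites of Tcf7 formed a group of 4 in the gene and a group of 4 before it. The intragenic sites lay 7.72, 14.9, 17.6 and 29.1 kb past the 5′ end by the KO midpoints. The site at 14.9 kb (chr11:52268408-52268600 in the KO list) stood at 5.62% of the KO list and 26.6% of the WT list, and the site at 17.6 kb at 11.5% and 16.6%. The site at 7.72 kb stood at 28.9% and 24.5%, and the one at 29.1 kb, nearest to the 3′ end, low in both lists at 79.9% and 88.7%. Before the gene, sites lay 10.8, 16.5, 31.0 and 35.2 kb from the 5′ end. The sites at 31.0 and 35.2 kb fell inside the noncoding gene Gm30217, the farther one at 26.7% of the KO list and 41.1% of the WT list. The site at 31.0 kb stood at 19.1% of the KO list and 13.3% of the WT list, and the site at 16.5 kb at 15.6% and 16.1%. The site at 10.8 kb, the nearest shared site before the gene, stood at 90.7% of the KO list and 59.3% of the WT list. Of the 8 sites, 6 stood in the first 50% of both lists.

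Lef1 spans 114.0 kb on the plus strand at chr3:131110297-131224357, behind a space of 380.0 kb without another protein-coding gene. Its list-specific peaks lay among shared ones along the locus. The KO-only peaks were chr3:131065136-131065328, 45.1 kb before the gene, and chr3:131126513-131126705 and chr3:131169293-131169485, both inside it. The WT-only peaks were chr3:131093792-131094010 and chr3:131106218-131106436, 16.4 and 3.97 kb before the gene, and chr3:131125813-131126031 and chr3:131190746-131190964 inside it. The one 3.97 kb before the gene lay in the noncoding gene Gm36603, and with 43.5% it stood highest of the WT-only peaks of Lef1.

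One pair of list-specific Lef1 peaks lay side by side. The KO-only peak at 131126513 and the WT-only peak at 131125813 were 481 bp apart, and both became shared when a space of up to 500 bp was allowed. They stood at 90.0% of the KO list and 67.8% of the WT list. The other list-specific peaks of Lef1 had 5.77 kb or more to the nearest peak of the other list. The KO-only peaks stood at 54.1, 89.9 and 90.0% of the KO list, and the WT-only peaks between 43.5 and 83.3% of the WT list, so all but 1 of the 7 were in the last 50% of their list.

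Of the 11 shared Lef1 sites, 6 lay in the gene and 5 before it. No peak lay on the 4 promoter windows. The closest shared site (chr3:131112206-131112398 in the KO list, chr3:131112168-131112386 in the WT list) had its midpoint 489 bp (KO) and 514 bp (WT) before the start at base 131112791 of chromosome 3, and stood at 17.4% of the KO list and 14.3% of the WT list. A site 1295 bp (KO) and 1338 bp (WT) past the start whose window is printed stood at 6.71% and 19.9%. The highest-placed site of the gene was intragenic and 98.4 kb past the 5′ end, at 5.63% of the KO list and 10.1% of the WT list. These intragenic sites and the site 90.8 kb before the gene, at 13.7% and 10.8%, stood in the upper part of both lists.

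The other shared Lef1 sites stood at places that were near each other in some cases and far apart in others. The site 52.9 kb before the gene was at 14.2% of the KO list and 35.3% of the WT list. The site 83.8 kb before it was at 79.3% and 47.4%, and the intragenic site at 89.5 kb was at 96.3% and 51.3%. The site 96.1 kb before the gene, in contrast, was at 38.0% and 38.7%. The site 25.0 kb before it, at 84.5% and 97.6%, and the intragenic site at 29.3 kb, at 63.3% and 73.3%, were low in both lists. The site at 7.57 kb in the gene (chr3:131117769-131117961 in the KO list, chr3:131117945-131118163 in the WT list) was at 23.0% and 27.2% and was shared by an overlap of 17 bp. With an overlap of at least 50% of both peaks required, this pair counted as 1 KO-only and 1 WT-only peak.

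Satb1 spans 97.1 kb on the minus strand at chr17:51736187-51833290. Its KO-only peak chr17:51814326-51814518 lay in the gene, 18.9 kb past the 5′ end and 2238 bp before an internal RefSeq start at base 51812184 of chromosome 17. At 21.5% it stood highest in its list among the 6 KO-only peaks of the 3 genes. In that 10% band of the KO list 13.0% of all KO peaks were KO-only. The nearest WT peak was 11.9 kb away.

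The other KO-only peaks of Satb1 stood late in the KO list. The intragenic peak chr17:51789187-51789379 was at 86.6%, and the peak chr17:51912223-51912415, 79.0 kb before the gene, at 99.8%. The WT-only peaks were chr17:51777820-51778038 and chr17:51800407-51800625 inside the gene, at 86.6% and 77.7% of the WT list, and chr17:51880325-51880543, 47.1 kb before the gene, at 39.5%. Between the shared sites at 6.74 and 70.5 kb in the gene, every peak was list-specific, with 2 in the KO list and 2 in the WT list. In that stretch the KO-only and WT-only peaks did not lie side by side, with spaces of 11027 to 11946 bp to the nearest peak of the other list.

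Of the 8 shared Satb1 sites, 6 lay in pairs. A pair lay near the 5′ end, 0.358 and 6.74 kb past the 5′ end by KO midpoints, and stood at 31.2% and 38.5% of the KO list and at 14.4% and 45.9% of the WT list. Another pair lay 43.3 and 46.2 kb before the gene, at 32.1% and 46.2% of the KO list and 43.2% and 45.0% of the WT list. The WT-only peak at 47.1 kb stood next to this pair, 730 bp from the nearest KO peak. The farthest pair, 70.8 and 73.3 kb before the gene and inside the noncoding gene Gm20098, stood at 34.7% and 68.5% of the KO list and 20.5% and 39.1% of the WT list. The single sites, 22.1 kb before the gene and 70.5 kb inside it, stood at 81.4% and 62.4% of the KO list and 54.9% and 57.9% of the WT list. No Satb1 peak was in the first 10% of either list. Of the shared sites of Tcf7 and Lef1, 3 were in the first 10% of the KO list (1 of Tcf7 and 2 of Lef1) and 0 in that of the WT list.

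**Figure D2:**
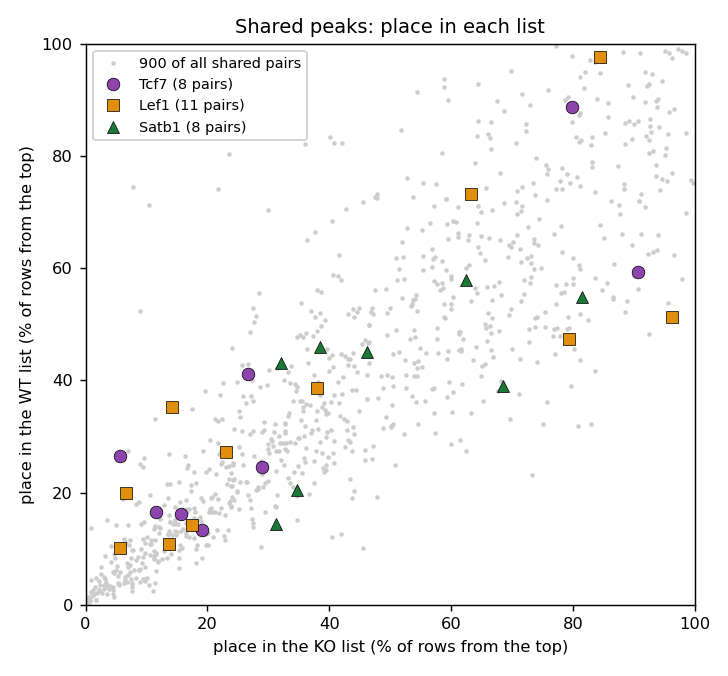
Place of each shared site in the KO list (x axis) and the WT list (y axis), as percent of rows from the top, for Tcf7 (circles), Lef1 (squares) and Satb1 (triangles), with 900 of all shared pairs as grey points. The 27 sites lie on either side of the diagonal and spread from 5.62 to 96.3% of the KO list and from 10.1 to 97.6% of the WT list.

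Over the 27 shared sites the places in the lists differed by a median of 10 points and by at most 45.0. Over all 26975 shared WT peaks the median was 7.53 points, and 10% of pairs differed by more than 25.4. The largest difference over all pairs is not given, so the 45.0 points have no like value beside them. The midpoints of a pair were a median of 36.0 bp apart at the 3 genes and 31.0 bp over all pairs. The offset was smallest at Tcf7, with a median of 29.5 bp, and was 39.0 bp at Lef1 and 46.5 bp at Satb1.

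List-specific peaks are more frequent lower in both lists, and the medians at the 3 genes went the same way. The shared KO peaks of the 3 genes stood at a median of 32.1% of the KO list and their KO-only peaks at 88.2%. Over all KO peaks these medians were 42.0% and 72.3%. The shared WT peaks stood at a median of 38.7% of the WT list and the WT-only peaks at 71.4%, beside 38.2% and 76.8% over all WT peaks. In the first 50% of their list stood 1 of the 6 KO-only peaks, beside 2367 of 9206 over all KO-only peaks. Of the 8 WT-only peaks 3 stood there, beside 1990 of 11283. With every peak given the share of its own 10% band of the list, the count would be 7.97 KO-only and 8.17 WT-only peaks, beside the 6 and 8 found. By location (within 1 kb of a gene end, in a gene body or between genes) the counts would be 9.84 and 12.1, and by band and location together 8.29 and 8.32. For Tcf7 the last of these gave 1.58 KO-only and 1.67 WT-only peaks, beside 0 and 1. For Lef1 it gave 3.58 and 3.99, beside 3 and 4, and for Satb1 3.13 and 2.66, beside 3 and 3.

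**Figure D3:**
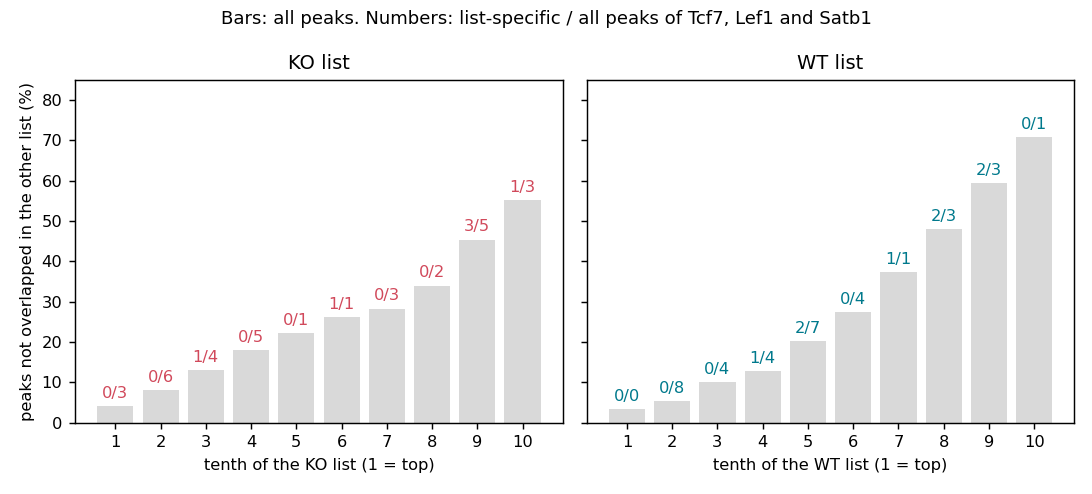
Percentage of all peaks not overlapped in the other list, by successive 10% bands of the KO list (left) and of the WT list (right), with the number of list-specific peaks over all peaks of Tcf7, Lef1 and Satb1 printed above each bar. The percentage is 4.06 in the first and 55.1 in the last band of the KO list and 3.37 and 70.7 in the WT list. Of the 6 KO-only peaks of the 3 genes, 4 stand in the last 2 bands, and of the 8 WT-only peaks 2 do.

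Partners and relatives of these factors were described from a list of 37 genes, of which 33 had a peak. The list held genes of the TCF/LEF and Wnt pathway and 4 HMG-box relatives. Together they held 37 KO-only, 38 WT-only and 75 shared peaks. KO-only peaks were 33.0% of their 112 KO peaks, beside 25.4% over the KO list, and WT-only peaks 33.6% of their 113 WT peaks, beside 29.5%. KO-only peaks were more numerous at 11 genes, WT-only peaks at 8, and the numbers were equal at 18, of which 4 had no peak in either list. Among the 33 genes with a peak, 14 had equal numbers. The median difference was 0, as over all genes with a peak.

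The other TCF genes had fewer peaks than Tcf7, Lef1 and Satb1. Tcf7l1 had 5 KO and 5 WT peaks, and Tcf7l2 had 6 and 6. Of the co-repressors, Tle4 held 3 KO-only and 3 WT-only peaks beside 5 shared ones and Tle3 held 2 and 2 beside 3. The 7 co-repressor genes together had 6 KO-only peaks (28.6% of their KO peaks) and 6 WT-only peaks (28.6% of their WT peaks). Among co-activators, Ctnnb1, the gene of beta-catenin, held 2 KO-only and 0 WT-only peaks beside 2 shared ones. Its adaptor Bcl9 held 1 and 3 beside 4 shared ones, and the related Bcl9l 2 and 1 beside 4.

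The 12 Wnt receptor genes held 8 KO-only and 6 WT-only peaks beside 6 shared ones, with 3 and 2 list-specific peaks at the receptor Fzd4 and 0 and 3 at the co-receptor Lrp6. Fzd1, Fzd2 and Fzd8 had no peak in either list. The 6 genes of the complex that degrades beta-catenin held 4 KO-only and 5 WT-only peaks beside 12 shared ones. These list-specific peaks were 25.0% of their KO peaks and 29.4% of their WT peaks. The scaffold Apc of this complex had 0 and 2 list-specific peaks, and the kinase Gsk3b had 1 and 0. Of the HMG-box relatives, Tox, a factor of T cell development and exhaustion, held 6 KO-only and 7 WT-only peaks beside 16 shared ones, more than any other gene of the list. Sox13, a factor of gamma delta T cells, held 0 and 2 beside 1 shared peak.

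**Figure D4:**
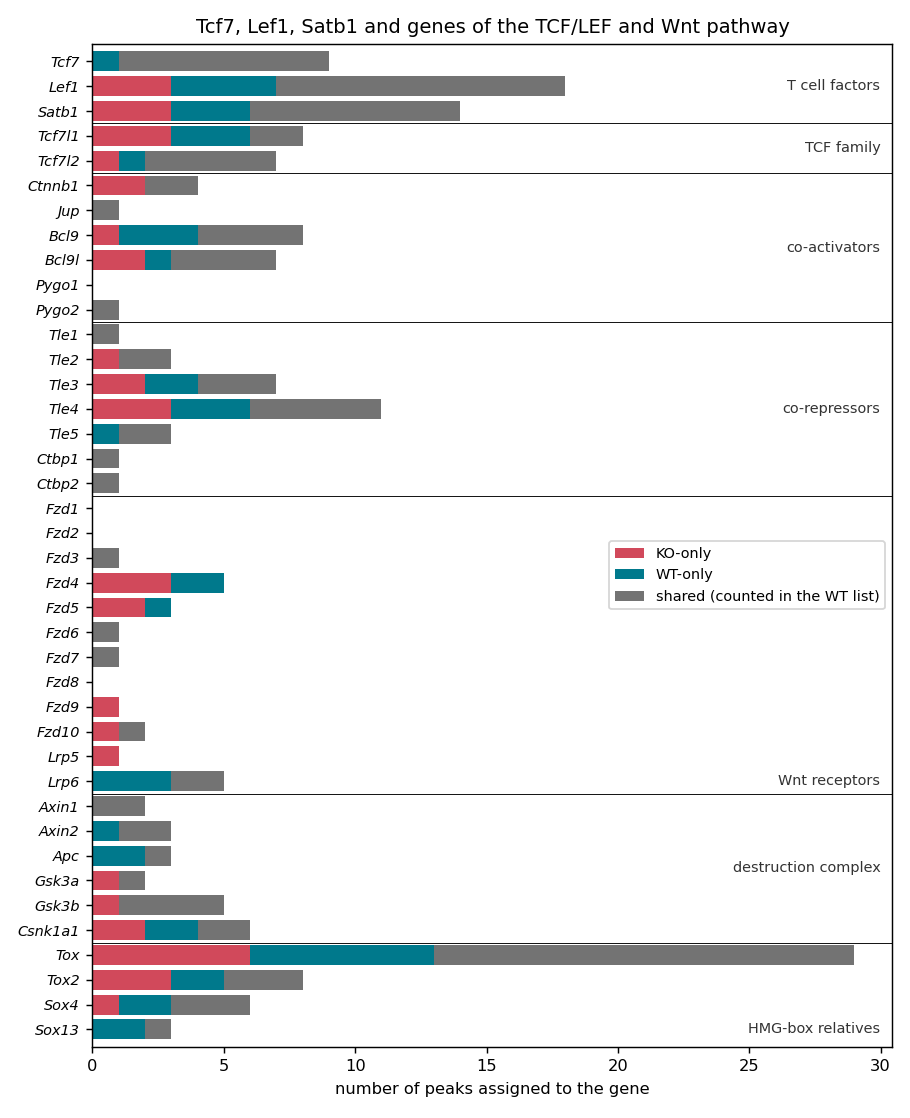
Number of KO-only, WT-only and shared peaks (x axis) at Tcf7, Lef1, Satb1 and 37 other genes (y axis, grouped by role). The 37 are genes of the TCF/LEF and Wnt pathway and HMG-box relatives. Lef1 and Satb1 have more peaks than all listed genes but Tox, and KO-only and WT-only peaks are near equal in number at most genes.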

How the data were processed

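ATAC-seq peaks of sorted Treg cells from 2 genotypes, 3 samples each, were analysed. Build mm10 and, without their roles, HISAT2 2.1.0, HOMER 4.10.1, SAMtools 1.3, deepTools, FastQC, cutadapt 1.12 and Trim Galore 0.4.2 are named per the submitters' processing notes. The sources used here do not give the peak threshold, the correction for Tn5 insertion or the joining of replicates. Per the labels each group has 1 list. The score that the authors deposited is 1 in every row and carries no height. Nearly all peaks are 193 bp (KO) or 219 bp (WT) wide, and the other values in the deposited lists are positions.

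Overlap, assignment to genes (RefSeq table, GRCm38.p6) and shares were computed with pandas 2.3.3, numpy 2.4.6 and scipy 1.17.1 in Python 3.11.15, and matplotlib 3.10.9 drew the figures. A midpoint inside several genes counted for each. The overlap code was checked against bedtools 2.31.1 on simulated data. The gene nearest to a site need not be the gene it regulates. Strand and starts came from the RefSeq promoter table, which has 17492 of 21887 protein-coding genes. Motifs were searched in promoter windows alone. With 1 list per group no test was made, and intervals cover counting error only. The 3 genes, the pathway and marker lists and the rules were chosen with earlier results of these data known. Every peak of the 3 genes was described, and pathway genes were counted from a list whatever their peaks. Some genes of the pathway and marker lists are not reported here. The alternatives were 3 overlap rules, 2 list lengths and 5 assignments.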

Additional observations from a re-analysis of the deposited data

How the results depend on the processing

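Under 10 alternatives, KO-only minus WT-only peaks were at or below 0 at Tcf7 (-2 to 0) and Lef1 (-4 to 0) and 0 at Satb1 under each. In the first 50% of each list, KO-only peaks of the 3 genes numbered 1 and WT-only peaks 3, and 94.7% of KO peaks were shared. Fewer peaks enter under this setting. WT-only peaks numbered 13 with a limit of 250 kb, 4 in gene bodies alone and 5 by the nearest gene of any biotype, where the set of peaks also differs. Under the other settings the summed counts stayed within 1.5 times of 6 KO-only and 8 WT-only peaks. Shared peaks were 75.8 to 84.8% of KO peaks under the 9 settings with the full KO list, and 68.4 to 87.0% of WT peaks under all 10. The difference of -4 at Lef1 was 3 against 7 peaks, with the 250 kb limit. The WT-only peak of Tcf7 is outside the gene and is lost only where gene bodies alone are counted. By the nearest gene end Tcf7 had 0 KO-only and 2 WT-only peaks. No paired analysis was possible because each genotype has 1 list with no values per replicate, and for the same reason no replicate could be left out. The lists hold no read depth, so a peak absent from a list may be a site that was not detectable at its depth.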

Other observations

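Between 100 and 250 kb before Lef1, outside the limit used above, lay 3 KO and 6 WT peaks, 3 of them shared. The WT list alone had peaks at chr3:130923496-130923714, chr3:130976253-130976471 and chr3:130978230-130978448, and KO-only peaks numbered 0. The last of these lay 132 kb before the gene, 791 bp from the KO peak of a shared site at 131 kb. At 85.7%, 46.7% and 45.1% of the WT list they stood in its middle and lower part. The shared site 163 kb before Lef1 (chr3:130947296-130947488 in the KO list) stood at 13.6% of the KO list and 14.3% of the WT list.

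Between 100 and 250 kb before Satb1 lay 7 KO and 7 WT peaks, 5 of them shared, 2 KO-only and 2 WT-only. In the whole lists 25.4% of KO peaks were KO-only and 29.5% of WT peaks WT-only. Shared sites gathered between 229 and 246 kb before the gene, where 4 of them stood at 28.4 to 62.4% of the KO list and 25.5 to 59.5% of the WT list. The KO-only peak chr17:52031361-52031553 and the WT-only peak chr17:52031092-52031310 lay side by side, 198 kb before the gene. They were 50 bp apart, so with a space of up to 500 bp allowed they would count as shared. At these distances the nearest protein-coding gene was still Lef1 or Satb1, and which gene the sites act on was not tested.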
